A study of Homo sapiens with 12 samples.

Results

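The genes examined are those of the nuclear-encoded respiratory chain, chosen by symbol: NDUFA, NDUFB, NDUFC, NDUFS and NDUFV genes for complex I, SDHA to SDHD for complex II, UQCR genes for complex III, COX4 to COX8 genes for complex IV and ATP5 genes for complex V. Of the 26475 gene symbols in the count table, 87 had such a symbol and 81 of them had a mean of at least 1 CPM (counts scaled to a common library total) over all libraries. The 81 comprised 37 genes of complex I, 4 of complex II, 10 of complex III, 13 of complex IV and 17 of complex V. Genes and lists were chosen with earlier results of these data known. The rule for the 81 used their symbols and mean level and no measured response. Not every one of these symbols encodes a subunit: UQCRBP1 is a pseudogene, UQCRHL is an intron-less copy of UQCRH, ATP5S and ATP5SL encode proteins outside the mature enzyme, and COX7A2L acts in joining complexes III and IV. NDUFA4 was counted with complex I by its symbol, although later structural work places its protein in complex IV.

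The human ovarian cancer lines PA-1, from a teratocarcinoma and described by the study as carrying mutated p53, and SK-OV3, from an adenocarcinoma in which p53 is deleted, were treated for 48 h with the vehicle DMSO or with 5 µM BAY-850, an inhibitor of ATAD2 that occupies the bromodomain, the part of the protein that reads acetylated histones. Each of the 4 groups (PA-1 with DMSO, PA-1 with BAY-850, SK-OV3 with DMSO, SK-OV3 with BAY-850) had 3 biological replicates. The study describes no introduced genetic change in the sequenced cells. PA-1 cells were grown in DMEM and SK-OV3 cells in RPMI, so that a difference between the lines cannot be told apart from a difference between the media, and each line stands for 1 tumour. The comparisons below ask whether the treatment changed the transcripts of the respiratory chain in each line, whether the lines differed in that response, and how their levels differed without the drug.

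The respiratory chain passes electrons from NADH (complex I) or succinate (complex II, which is also a tricarboxylic acid cycle enzyme) through ubiquinone to complex III, cytochrome c and complex IV, where oxygen is reduced. The resulting proton gradient drives ATP synthesis by complex V. A small set of subunits is encoded by mitochondrial DNA, and all others come from the nucleus, where their promoters are known for sites of NRF1, the ETS factor GABP and YY1, and their transcription is raised by coactivators of the PGC-1 family and ERR alpha. None of the 13 mitochondrially encoded subunit symbols was found among the symbols analysed here, so they were not analysed here.

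The library totals ranged from 34544505 to 51840233 counts, and genes of ribosomal RNA took 7.94% to 16.9% of them. In such bulk samples fewer cells of a type and less RNA per cell cannot be told apart. Levels are given as CPM with TMM normalization (a scaling between libraries that assumes most genes keep their level). The 7 markers chosen for PA-1 (POU5F1, LIN28A and other pluripotency genes) summed to between 1368 and 1644 CPM in its libraries and to at most 10.4 CPM in SK-OV3. Of the 7, DPPA4 and L1TD1 were low in PA-1 as well (1.80 and 0.448 CPM under DMSO). The 8 markers chosen for SK-OV3 summed to between 2903 and 4439 CPM there and to between 927 and 1055 CPM in PA-1. Among them ERBB2 alone averaged 2416 CPM in SK-OV3 under DMSO. KRT18 was higher in PA-1 than in SK-OV3 (335 and 266 CPM under DMSO). KRT8 was at 532 CPM in PA-1 and 599 CPM in SK-OV3 under DMSO, and at 580 and 416 CPM under BAY-850. The 4 immune markers stayed at or below 1.22 CPM in sum, whereas of the 4 fibroblast markers COL1A1 averaged 462 CPM in PA-1 and 168 CPM in SK-OV3 under DMSO and DCN at most 0.0162 CPM in any group. The part of these genes in the results below was not tested.

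The promoter windows of 65 of the 81 genes were found in RefSeq (GRCh38.p14, 250 bases before to 50 bases after a listed start), and 4 of them are shown. NDUFS4 and SDHB were lower with BAY-850 in PA-1, and UQCRH and COX7B2 were each expressed in only 1 of the lines. The latter pair was chosen after its values were seen. Capitals mark the letters AAGATGGC (YY1) and CCGGAAG (ETS family) on either strand, CTTCCGG being the reverse of the latter.
NDUFS4, chr5:53560389-53560688, plus strand: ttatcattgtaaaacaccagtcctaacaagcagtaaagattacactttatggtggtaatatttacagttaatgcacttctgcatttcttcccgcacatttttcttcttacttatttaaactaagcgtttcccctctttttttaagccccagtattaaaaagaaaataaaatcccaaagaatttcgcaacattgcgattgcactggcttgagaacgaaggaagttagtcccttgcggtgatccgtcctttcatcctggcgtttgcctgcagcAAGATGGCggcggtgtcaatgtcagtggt
SDHB, chr1:17053983-17054282, minus strand: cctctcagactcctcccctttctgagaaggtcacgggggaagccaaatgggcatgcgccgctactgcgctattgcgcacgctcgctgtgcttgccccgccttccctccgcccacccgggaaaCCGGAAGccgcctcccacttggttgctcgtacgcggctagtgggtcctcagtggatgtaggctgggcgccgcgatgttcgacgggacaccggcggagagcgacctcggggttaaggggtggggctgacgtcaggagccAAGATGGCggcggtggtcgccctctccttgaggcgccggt
UQCRH, chr1:46303448-46303747, plus strand: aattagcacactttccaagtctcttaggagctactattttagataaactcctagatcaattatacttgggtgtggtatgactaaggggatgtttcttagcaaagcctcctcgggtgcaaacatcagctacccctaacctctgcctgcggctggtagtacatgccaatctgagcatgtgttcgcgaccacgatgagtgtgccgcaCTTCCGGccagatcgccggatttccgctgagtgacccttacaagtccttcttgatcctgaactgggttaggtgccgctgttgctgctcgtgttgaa
COX7B2, chr4:46909196-46909495, minus strand: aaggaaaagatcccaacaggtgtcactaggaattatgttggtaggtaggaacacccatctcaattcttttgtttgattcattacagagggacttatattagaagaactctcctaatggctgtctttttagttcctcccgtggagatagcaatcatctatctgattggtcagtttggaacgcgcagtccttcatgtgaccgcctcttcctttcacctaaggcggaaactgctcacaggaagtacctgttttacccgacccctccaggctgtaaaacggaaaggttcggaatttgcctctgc

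Letters known for regulators of these genes were found in the windows more often than in promoters at large. The NRF1 letters GCGCANGCG were found on either strand in 20 of the 65 windows (30.8%), against 8.05% of all 27305 RefSeq promoters of the same length and 11.0% of the protein-coding ones. CCGGAAG was found in 19 (29.2%, against 10.7% and 14.2%), AAGATGGC in 11 (16.9%, against 3.03% and 3.91%) and the ERR letters TNAAGGTCA in 2 (3.08%, against 0.963% and 0.638%). None of the motifs contains another. In the windows shown, the YY1 letters were found in NDUFS4 and SDHB just after the listed start, the ETS letters in SDHB and UQCRH, and none of the 4 motifs in COX7B2. The COX7B2 window held 8 CpG dinucleotides and that of UQCRH 12, where the median over the 65 windows was 23. A match of letters is a description of the sequence and not a bound site.

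In PA-1 cells, the genes of the respiratory chain had small responses to BAY-850, mostly below 0, and few passed the test. Of the 80 genes tested, 5 fell with BAY-850 at an adjusted p under 0.05 by edgeR's quasi-likelihood test (6.25%, where 2.48% of all 15212 genes tested fell) and 0 rose (where 4.65% of all genes rose). ATP5G1 alone was higher and 18 genes lower at an unadjusted p under 0.05, and DESeq2 called 9 lower and 0 higher. The genes that fell encode parts of complexes I, II and III: NDUFS4, NDUFA5, NDUFV2, SDHB and UQCRB. The median log2 fold change over the 80 genes was -0.10, beside -0.0019 over all genes tested, and 61 of the 80 were below 0. The replicates of the groups did not overlap for 13 genes, all lower with BAY-850, which is 16.3% beside 13.3% of all genes lower without overlap and 14.1% higher without overlap. COX7B2 had no counts in PA-1 and was not tested there.

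NDUFS4 (chr5:53560633-53683340 in GENCODE's annotation of GRCh38), an accessory subunit of the NADH-oxidising arm of complex I that is mutated in Leigh syndrome, showed the largest fall among the called genes in PA-1. Its level was 97.9, 87.4 and 89.1 CPM in the 3 DMSO libraries and 71.5, 70.2 and 74.9 CPM in the 3 BAY-850 libraries of PA-1. The groups did not overlap, and the log2 fold change was -0.34 ± 0.062 (SE, n = 3 per group, edgeR adjusted p = 0.00485). NDUFS4 was also the one respiratory chain gene that remained called in PA-1 under all 14 alternatives, with log2 fold changes from -0.38 to -0.27. In SK-OV3 it read 50.3, 40.3 and 41.6 CPM under DMSO and 47.9, 47.0 and 57.2 CPM under BAY-850, with overlapping replicates and a log2 fold change of 0.22 ± 0.11 (edgeR adjusted p = 0.186).

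NDUFA5, an accessory subunit of the arm of complex I that extends into the matrix, was at 99.1, 97.0 and 89.9 CPM under DMSO and 80.5, 75.0 and 79.8 CPM under BAY-850 in PA-1. Every treated library was below every control library, with a log2 fold change of -0.28 ± 0.061 (edgeR adjusted p = 0.0134). NDUFV2, a core subunit that carries an iron-sulphur cluster, fell from a mean of 114 ± 5.24 to 96.1 ± 5.08 CPM (SD, n = 3; log2 fold change -0.24 ± 0.062, edgeR adjusted p = 0.0298) and is named after its value was seen. SDHB, the iron-sulphur subunit of succinate dehydrogenase, was at 54.1, 55.6 and 54.9 CPM under DMSO and 41.0, 44.4 and 50.7 CPM under BAY-850. Its control libraries were close together and its treated libraries more spread, all below the controls (log2 fold change -0.27 ± 0.076, edgeR adjusted p = 0.0433). UQCRB, a ubiquinone-binding subunit of complex III, fell from a mean of 224 ± 25.2 to 180.5 ± 17.0 CPM (log2 fold change -0.31 ± 0.082, edgeR adjusted p = 0.0368). UQCRB and its pseudogene UQCRBP1 both had non-whole expected counts in 11 of the 12 libraries, which is how RSEM marks reads divided between alike sequences, so that the fall of UQCRB is uncertain. UQCRBP1 itself had a log2 fold change of -0.60 ± 0.17 (edgeR adjusted p = 0.0508). Of the 14 alternatives, 4 each lost the calls of NDUFA5 and UQCRB in PA-1 and 5 each those of NDUFV2 and SDHB.

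**Figure D1:**
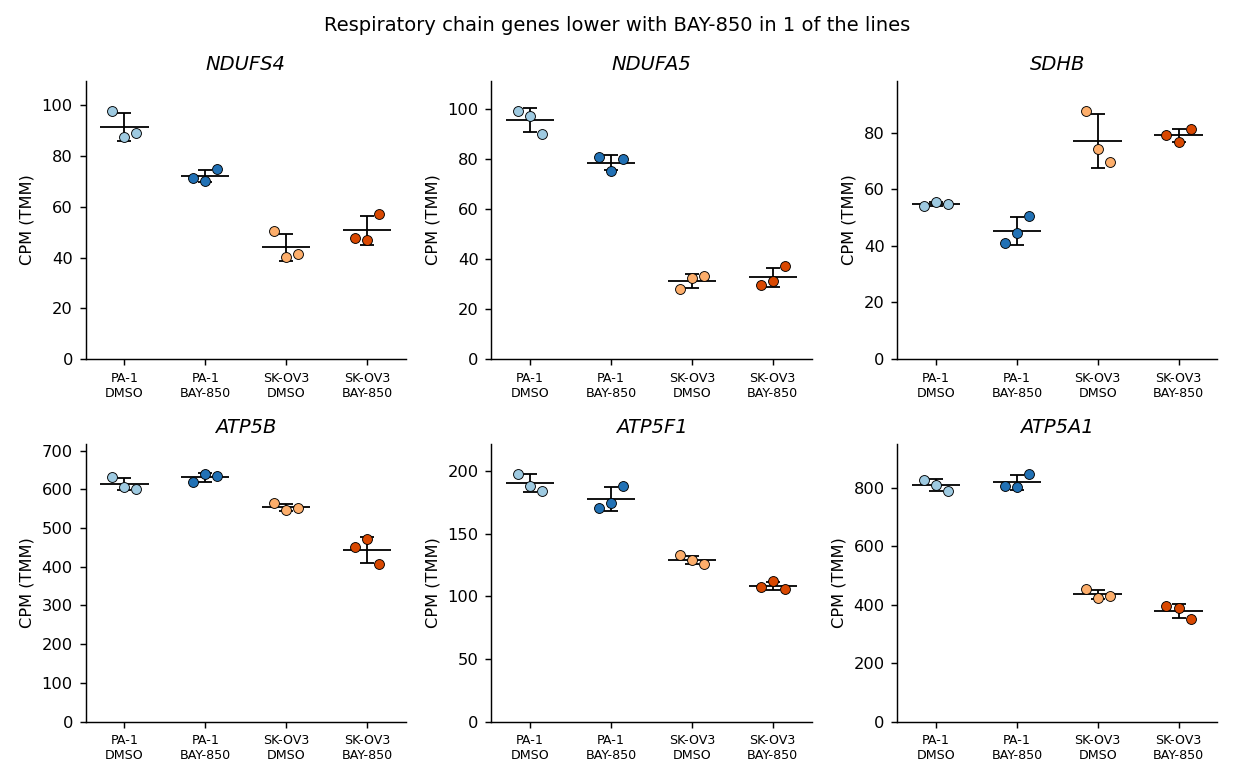
TMM-normalized CPM (vertical axis, from 0) of 6 genes in each group of 3 libraries (horizontal axis), with points for libraries, the line for the mean and bars for the SD. NDUFS4, NDUFA5 and SDHB are lower with BAY-850 in PA-1 with no overlap, and ATP5B, ATP5F1 and ATP5A1 are lower with BAY-850 in SK-OV3 with no overlap.

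The complexes differed little in PA-1. The median log2 fold change was -0.10 in complex I, -0.10 in complex II, -0.15 in complex III, -0.06 in complex IV and -0.10 in complex V. Complex I held 3 of the 5 called genes, among 37 tested. No gene of complex IV passed the test in PA-1 by edgeR or DESeq2, and 1 of 12, COX6C (named after its value was seen), was lower at an unadjusted p under 0.05. No gene of complex V was called by edgeR among 17, while 2 were lower and 1 higher at an unadjusted p under 0.05 and DESeq2 called 2 lower. The 17 core subunits (those of complex I that are shared with bacteria, all of complex II, UQCRFS1 and the F1 head of complex V) had a median of -0.03, and the 63 accessory genes tested one of -0.12.

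Several other measures moved with the response of the respiratory chain in PA-1, and their part in it was not tested except where a value is given. Over 13810 protein-coding genes tested, the log2 fold change in PA-1 had a Spearman correlation of 0.388 with the GC content of the exons, and over the 80 respiratory chain genes one of 0.479 (genes of 1 set of libraries, with no p). The 5 called genes had 35.0% to 48.6% GC, against a median of 47.7% over the 80. With each library's trend on GC content removed, 2 genes, NDUFS4 and SDHB, remained called and the median over the 80 was -0.08. Medians below 0 were also seen outside the respiratory chain: the median was -0.11 over 77 mitochondrial ribosomal proteins (5 fell), -0.10 over 80 cytosolic ribosomal proteins (3 fell) and -0.05 over 36 proteasome subunits (1 fell). Without PA-1 DMSO replicate 1, PA-1 DMSO replicate 2 or PA-1 BAY-850 replicate 2, 1 gene was called lower (NDUFS4 each time), without BAY-850 replicate 1 there were 3 lower and 1 higher (ATP5D), and without BAY-850 replicate 3 there were 10 lower.

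In SK-OV3 cells, most genes of the chain that edgeR called lower with BAY-850 carried ATP5 symbols. Of the 79 respiratory chain genes tested, 7 fell (8.86%, where 9.56% of all 15348 genes tested fell) and 0 rose (where 10.8% of all genes rose). The share that fell was near that of all genes. ATP5D alone was higher and 16 genes lower at an unadjusted p under 0.05, and DESeq2 called 10 lower and 0 higher. Of those 10, 6 were of complex V, 3 of complex I and 1 of complex III. Of the 7 called by edgeR, 6 carry ATP5 symbols: ATP5S, ATP5B, ATP5L, ATP5F1, ATP5G3 and ATP5A1. Of the 17 ATP5 genes 6 fell (35.3%), and their median log2 fold change was -0.14 beside -0.08 over the 79 and -0.0091 over all genes. Proteasome subunits, outside the chain, had a like share called lower, 14 of 37 (37.8%). The replicates did not overlap for 18 genes lower with BAY-850 (22.8%, beside 20.5% of all genes) and for 1 higher, NDUFV3 (1.27%, beside 18.1% of all genes). UQCRH and UQCRHL had too few counts in SK-OV3 to be tested.

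ATP5B, the catalytic beta subunit of the F1 head, was at 564, 547 and 551 CPM in the SK-OV3 DMSO libraries and at 451, 472 and 407 CPM in those with BAY-850. The treated libraries were all below the controls, with a log2 fold change of -0.31 ± 0.051 (n = 3 per group, edgeR adjusted p = 0.00149). ATP5A1, the alpha subunit of the same head, was at 453, 424 and 429 CPM under DMSO and 395, 389 and 353 CPM under BAY-850. It fell by 0.19 ± 0.051 on the log2 scale, again without overlap (edgeR adjusted p = 0.0241). ATP5F1, subunit b of the peripheral stalk, was at 133, 129 and 126 CPM under DMSO and 108, 112 and 106 CPM under BAY-850. The groups did not overlap and the log2 fold change was -0.24 ± 0.052 (edgeR adjusted p = 0.00768). ATP5A1 and ATP5F1 are named after their values were seen.

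Of the membrane part, ATP5L (subunit g) fell from 162 ± 13.7 to 134 ± 8.45 CPM (log2 fold change -0.26 ± 0.071, edgeR adjusted p = 0.0256). ATP5G3, 1 of 3 genes for the same mature subunit c of the rotor ring, fell from 223 ± 17.0 to 189 ± 12.2 CPM (log2 fold change -0.22 ± 0.065, edgeR adjusted p = 0.0318). Its sister genes did not pass the test. ATP5G1 was at 33.9 ± 5.89 CPM under DMSO and 28.4 ± 3.42 CPM under BAY-850 (log2 fold change -0.24 ± 0.13, edgeR adjusted p = 0.211), an estimate as large as that of ATP5G3 with a larger SE. ATP5G2 was at 114 ± 20.4 and 109 ± 6.21 CPM (log2 fold change -0.04 ± 0.11, edgeR adjusted p = 0.818). ATP5S, a coupling factor that is no structural subunit, had the largest fall, from 8.70, 7.20 and 7.46 CPM to 5.12, 5.47 and 4.02 CPM (log2 fold change -0.67 ± 0.17, edgeR adjusted p = 0.0186). ATP5D, the delta subunit of the F1 head, did not follow the others and was at 50.8 CPM under DMSO and 60.0 CPM under BAY-850 (log2 fold change 0.25 ± 0.096, edgeR adjusted p = 0.0863, named after its value was seen).

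The summed level of the 17 ATP5 genes was 2583, 2316 and 2311 CPM in the SK-OV3 DMSO libraries and 2101, 2178 and 2053 CPM in those with BAY-850, without overlap. In PA-1 the same sum was 3224, 3031 and 2986 CPM under DMSO and 2903, 2918 and 3127 CPM under BAY-850, where the groups overlapped. The medians of the other complexes in SK-OV3 were -0.09 for complex I, 0.03 for complex II, -0.03 for III and -0.06 for IV. In complex I 1 of 37 fell by edgeR, with 3 lower by DESeq2 and 6 at an unadjusted p under 0.05. In complex II 0 of 4 were called by edgeR or DESeq2, and SDHC was lower at an unadjusted p under 0.05. In complex III 0 of 8 were called by edgeR, and 1 was lower at an unadjusted p under 0.05 and by DESeq2. In complex IV 0 of 13 were called by either tool or at an unadjusted p under 0.05.

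**Figure D2:**
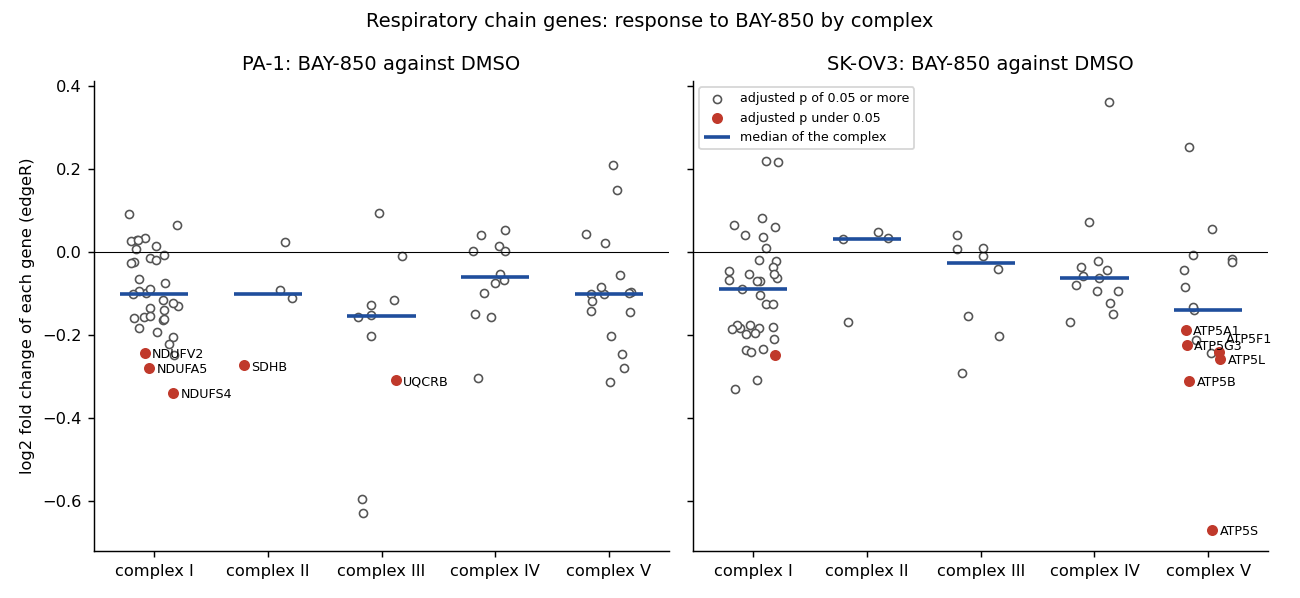
Log2 fold change (vertical axis) of each gene tested, by complex (horizontal axis), for PA-1 on the left and SK-OV3 on the right. Red points passed an adjusted p of 0.05 (those named in the text are labelled), open points did not, and blue lines are the medians of the complexes, which lie at -0.15 to -0.06 in PA-1 and at -0.14 to 0.03 in SK-OV3.

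SK-OV3 DMSO replicate 1 stood apart from its group and set the sign of the overall median. Over the 81 genes, its median log2(CPM + 1) was 0.17 above the mean of the 3 DMSO libraries, with 5 genes below that mean, while DMSO replicates 2 and 3 were at -0.06 and -0.08. The SK-OV3 BAY-850 libraries were at -0.11, -0.07 and -0.09, close to those 2 controls. PA-1 DMSO replicate 1 also stood high, at 0.10 against -0.05 and -0.04, and the PA-1 BAY-850 libraries were at -0.14, -0.16 and -0.01. The 79 cytosolic ribosomal protein genes stood high in the same libraries, at 0.16 in SK-OV3 DMSO replicate 1 and 0.10 in PA-1 DMSO replicate 1, whereas the median over all genes at 1 CPM or more was -0.0029 and 0 there. SK-OV3 BAY-850 replicate 3 stood apart in other ways. It had the largest total but the fewest genes detected, 15634 where the median over the libraries was 17822.5. Its median over all genes at 1 CPM or more was -0.0457. It also gave the lowest of the treated values of ATP5B, ATP5A1, ATP5F1 and ATP5S. The part of these libraries in the responses was not tested beyond leaving each library out.

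Without SK-OV3 DMSO replicate 1, the median over the respiratory chain in SK-OV3 was 0.02 in place of -0.08, 34 of 80 genes were lower, 3 were called lower (ATP5B, ATP5F1 and ATP5A1) and 1 higher (ATP5D). Without DMSO replicate 2 there were 3 called lower, without BAY-850 replicate 1 there were 4, and without BAY-850 replicate 3 there were 11 lower and 1 higher (NDUFV3). ATP5B and ATP5F1 remained called lower under all 14 alternatives. The calls of ATP5S, ATP5A1, ATP5L and ATP5G3 were lost under 3, 4, 5 and 6 of the 14.

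**Figure D3:**
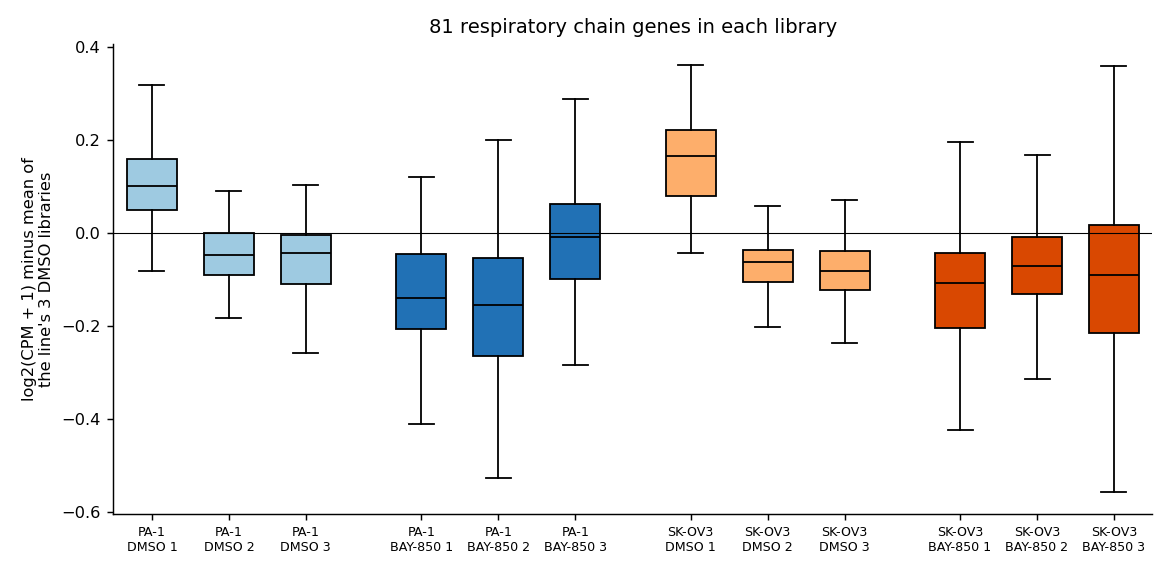
Deviation of log2(CPM + 1) of the 81 genes from the mean of the 3 DMSO libraries of the same line (vertical axis) in each library (horizontal axis). Boxes span the quartiles with the median as a line, whiskers reach the last gene within 1.5 box lengths, and genes beyond are not drawn. SK-OV3 DMSO replicate 1 has a median of 0.17 and the other SK-OV3 libraries lie between -0.11 and -0.06.

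The response of 2 respiratory chain genes differed between the lines by the interaction term (2.47% of 81, where 6.70% of 16830 genes had a higher response in SK-OV3 and 7.77% a lower one). NDUFS4 had a response 0.54 ± 0.13 higher in SK-OV3 on the log2 scale (edgeR adjusted p = 0.00968) and was the gene with the largest called fall in PA-1. ATP5B had a response 0.36 ± 0.073 lower in SK-OV3 (edgeR adjusted p = 0.00374). In PA-1 it was at 632, 607 and 602 CPM under DMSO and 618, 641 and 635 CPM under BAY-850, with overlapping replicates (log2 fold change 0.04 ± 0.049, edgeR adjusted p = 0.654). Both calls held under all 20 alternatives. No other gene of the respiratory chain was called by edgeR with all libraries, and the 5 genes that fell in PA-1 and the 7 that fell in SK-OV3 shared 0 genes. For the others this does not show a difference between the lines: ATP5A1 had an interaction of -0.22 ± 0.072 (edgeR adjusted p = 0.0540), NDUFA5 one of 0.35 ± 0.12 (edgeR adjusted p = 0.0661) and SDHB one of 0.31 ± 0.12 (edgeR adjusted p = 0.104). UQCRH, on few counts in SK-OV3, did not pass either (edgeR adjusted p = 0.0763), and NDUFV3, an accessory subunit of complex I, had 0.35 ± 0.13 (edgeR adjusted p = 0.0875). These interactions were picked after their values were seen. Of the 78 genes tested in both lines, 47 were below 0 in both, 6 above 0 in both, 12 below 0 in PA-1 alone and 13 in SK-OV3 alone. Most genes were below 0 in each line (61 of 80 in PA-1, 61 of 79 in SK-OV3). A large count below 0 in both therefore needs no link between the 2 responses. The log2 fold changes of the 78 had a Pearson correlation of 0.085 between the lines.

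Succinate dehydrogenase is encoded wholly by 4 nuclear genes. SDHA, the flavoprotein, was at 72.8 ± 0.735 CPM under DMSO and 73.9 ± 2.32 CPM under BAY-850 in PA-1, and at 125 ± 0.751 and 127 ± 7.83 CPM in SK-OV3. Neither response passed the test (log2 fold changes 0.02 ± 0.057 and 0.03 ± 0.054, edgeR adjusted p = 0.850 and 0.711), and SDHA had non-whole counts in all 12 libraries. The membrane anchor SDHC gave -0.09 ± 0.055 on the log2 scale for PA-1 and -0.17 ± 0.062 for SK-OV3 (edgeR adjusted p = 0.340 and 0.0803), and its replicates did not overlap in either line. The other anchor, SDHD, gave -0.11 ± 0.070 and 0.03 ± 0.064 (edgeR adjusted p = 0.362 and 0.785). SDHB, which fell in PA-1, was at 87.8, 74.2 and 69.5 CPM under DMSO and 79.2, 76.7 and 81.2 CPM under BAY-850 in SK-OV3 (log2 fold change 0.05 ± 0.085, edgeR adjusted p = 0.745).

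Between the lines under DMSO, 2 genes of the respiratory chain were on in 1 line and nearly or wholly absent in the other. The median size of the difference was smaller over the chain than over all genes, as it was over other mitochondrial gene lists. Of the 81 genes, 20 were higher in SK-OV3 and 35 lower (67.9% in all), where 38.3% of all 16830 genes were higher and 38.1% lower. The median size of the log2 difference was 0.36 over the 81 and 0.90 over all genes. It was 0.40 over 77 mitochondrial ribosomal proteins, 0.45 over 44 assembly factors and 0.23 over 13 tricarboxylic acid cycle enzymes. Proteasome subunits had a median size of 0.64 and cytosolic ribosomal proteins one of 1.05. UQCRH, UQCRHL, COX6B2 and COX7B2 averaged under 1 CPM in both groups of 1 line and met the limit of 1 CPM only through the other, so that these 4 had to differ, and their line differences are given as values with no test. The core subunits had a median size of 0.16 (9 of 17 called) and the accessory genes one of 0.52 (46 of 64 called). The 4 genes that had to differ are all accessory, and the counts and medians of this paragraph include them.

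UQCRH (chr1:46303631-46316776), the hinge subunit of complex III that helps cytochrome c dock, was expressed in PA-1 and close to absent in SK-OV3. It had 9136, 10344 and 7756 expected counts in PA-1 with DMSO and 9436, 7852 and 8097 with BAY-850. In SK-OV3 it had 10, 5 and 8 counts with DMSO and 5, 21 and 44 with BAY-850. Every library of SK-OV3 was below 1 CPM and every library of PA-1 above 199 CPM. Relative to the library totals, UQCRH was 1162-fold higher in PA-1 under DMSO (95% exact Poisson interval 774 to 1833, for counting error only). UQCRHL, its intron-less copy, was at 3.47 ± 1.04 CPM in PA-1 and 0.0513 ± 0.0518 CPM in SK-OV3 under DMSO and had non-whole counts in 5 libraries.

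The gene next to UQCRH was also low in SK-OV3. LRRC41, on the opposite strand with its start 22 bases from that of UQCRH, was at 40.9, 39.6 and 44.2 CPM in PA-1 and 5.33, 4.89 and 4.64 CPM in SK-OV3 under DMSO (log2 difference -3.07 ± 0.13, edgeR adjusted p = 2.66e-12). The UQCRH promoter shown above lies across this shared start region. NSUN4, the next gene on the other side, was at 30.8 ± 1.68 and 30.9 ± 1.96 CPM (log2 difference 0.0041 ± 0.079, edgeR adjusted p = 0.964), and of the other genes annotated within 100 kb of UQCRH, LURAP1 and RAD54L were lower in SK-OV3 (log2 differences -1.21 and -0.46) and POMGNT1 and FAAH higher (0.54 and 0.71). Whether the locus itself differs between the lines was not tested. LRRC41 and its neighbours were chosen after the value of UQCRH was seen.

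COX7B2 (chr4:46734827-46909235), a paralogue of the complex IV subunit gene COX7B that is known mainly from testis, had 0 counts in all 6 PA-1 libraries. In SK-OV3 it had 1134, 959 and 989 counts with DMSO and 1015, 1045 and 1436 with BAY-850, which is 28.5, 25.4 and 25.6 CPM and 25.0, 24.7 and 26.7 CPM. It was 1047-fold higher in SK-OV3 under DMSO if 3 counts over the PA-1 group are taken in place of 0. The lower limit of the 95% exact Poisson interval, for counting error only, was 852-fold. Its response to BAY-850 in SK-OV3 did not pass the test (log2 fold change -0.04 ± 0.088, edgeR adjusted p = 0.783). Per kilobase of exon, COX7B2 was at 32.8 ± 2.17 CPM in SK-OV3 and COX7B at 19.9 ± 2.11 CPM, and with the longest transcript as the length the values were 43.0 and 24.3. The neighbour GABRA4 had 0 counts in all groups and GABRB1 at most 0.0251 CPM.

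**Figure D4:**
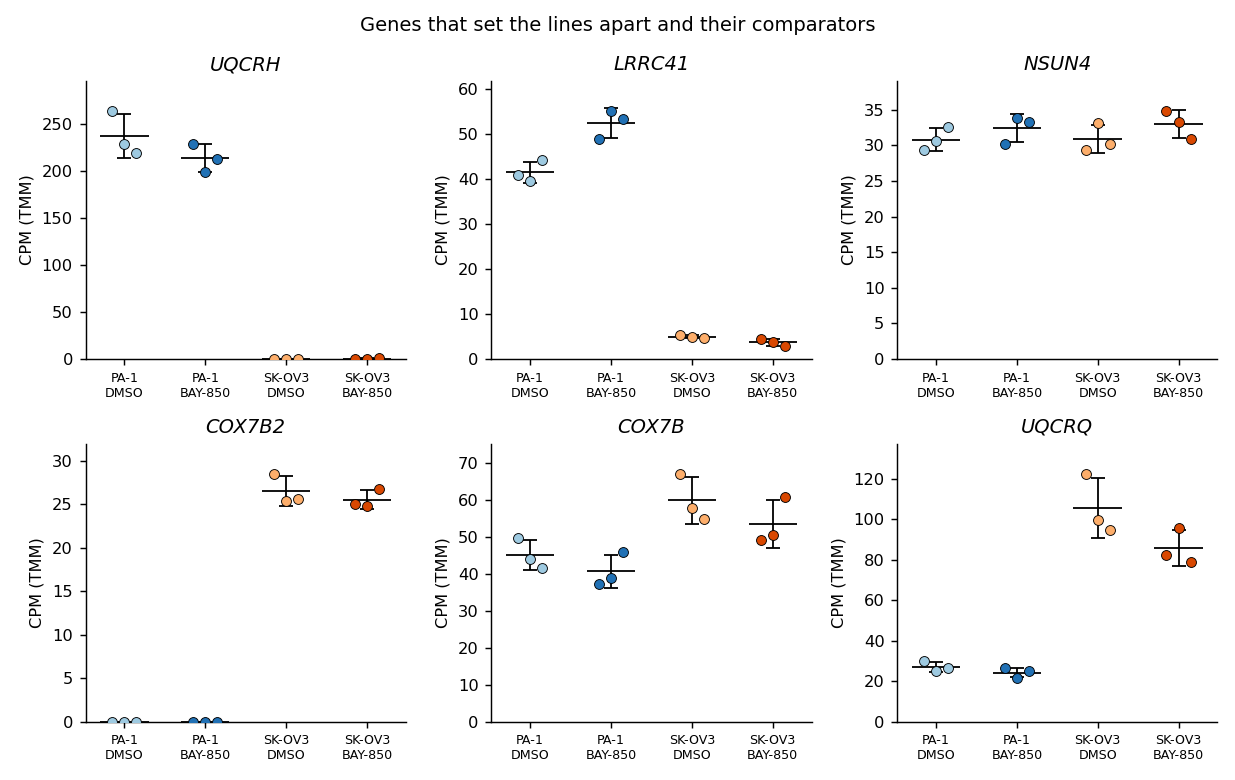
TMM-normalized CPM (vertical axis, from 0) of 6 genes in each group of 3 libraries (horizontal axis), with points for libraries, the line for the mean and bars for the SD. UQCRH and its neighbour LRRC41 are low in both SK-OV3 groups while NSUN4 is alike in all, COX7B2 is at 0 in PA-1 while COX7B is expressed in both lines, and UQCRQ is higher in SK-OV3.

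In complex III, UQCRQ differed in the other direction. This small accessory subunit was at 29.9, 25.2 and 26.3 CPM in PA-1 and 123, 99.6 and 94.6 CPM in SK-OV3 under DMSO, 3.89-fold higher (log2 difference 1.96 ± 0.11, edgeR adjusted p = 1.29e-10). Its larger partners differed less: UQCRC1 by -0.47, UQCRC2 by -0.13 and UQCRFS1, the iron-sulphur subunit, by 0.30 on the log2 scale (all past the threshold, named after their values were seen). In complex I, NDUFB8 was lower in SK-OV3 (114 ± 8.77 and 35.3 ± 3.78 CPM, log2 difference -1.69 ± 0.086, edgeR adjusted p = 4.15e-11) and so was NDUFA5 (95.3 ± 4.85 and 31.1 ± 2.82 CPM, log2 difference -1.61 ± 0.087, edgeR adjusted p = 7.80e-11), both named here after their values were seen. UQCRBP1 was lower by 2.06 ± 0.77 on the log2 scale (edgeR adjusted p = 0.0237), with the uncertain division of reads noted above, and this call was lost under 3 of 14 alternatives.

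The 3 genes of subunit c differed unequally between the lines. ATP5G1 was higher in SK-OV3 (16.5 ± 1.64 and 33.9 ± 5.89 CPM, log2 difference 1.04 ± 0.13, edgeR adjusted p = 1.51e-06), ATP5G2 lower (means of 226 and 114 CPM, log2 difference -0.99 ± 0.099, edgeR adjusted p = 1.71e-07), and ATP5G3 did not pass the test (0.09 ± 0.067, edgeR adjusted p = 0.241). Per kilobase of exon, ATP5G2 led in PA-1 with 56.5 CPM before ATP5G3 with 30.9 and ATP5G1 with 6.30. In SK-OV3 ATP5G3 with 32.9 ± 2.50 and ATP5G2 with 28.5 ± 5.10 were within their spread, and with the longest transcript as the length ATP5G2 led there too with 57.5 against 40.6.

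Of the paired tissue isoforms of complex IV, the partners of the widely expressed forms were low, apart from COX7B2. COX6B1, a subunit of the outer face, was at 50.8 ± 4.03 CPM in PA-1 and 99.6 ± 12.3 CPM in SK-OV3 under DMSO (log2 difference 0.97 ± 0.090, edgeR adjusted p = 6.42e-08), and its testis form COX6B2 at 2.40 ± 0.330 and 0.420 ± 0.174 CPM, meeting the limit through PA-1 only. Per kilobase of exon, COX6B1 was at 54.3 and 106 CPM and COX6B2 at 0.629 and 0.110 CPM. COX6B2, with UQCRHL, was just inside the limit of 1 CPM over all libraries (means of 1.42 and 1.41 CPM), and the muscle form COX7A1 was just outside it (0.525 CPM), with 1 count in PA-1 and 108 in SK-OV3 over 3 DMSO libraries each. COX4I1, COX6A1, COX7A2 and COX8A averaged 214, 111, 130 and 96.9 CPM in SK-OV3 and 248, 126, 90.5 and 97.1 CPM in PA-1. Their partners COX4I2, COX6A2 and COX8C had at most 0.179 CPM in any group, and COX6A2 had 0 counts in all 12 libraries. The other genes under the limit were ATP5EP2 and ATP5L2.

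**Figure D5:**
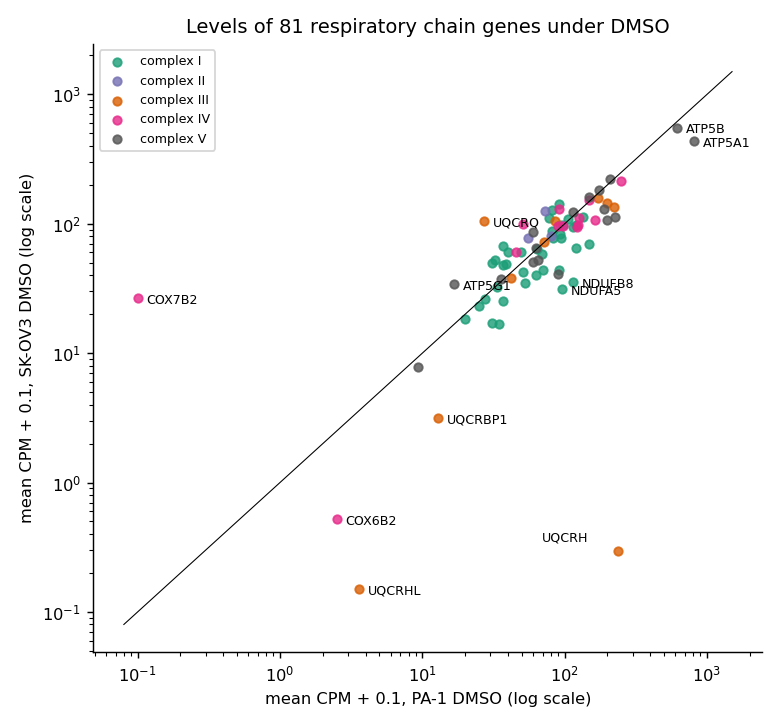
Mean CPM plus 0.1 of the 81 genes in PA-1 (horizontal axis) and SK-OV3 (vertical axis) under DMSO, on log scales, with colours for complexes and a line of equal level. Most genes lie near the line, while UQCRH is at 238 CPM in PA-1 and 0.197 CPM in SK-OV3 and COX7B2 at 0 and 26.5 CPM.

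Of the regulators of mitochondrial biogenesis, PPARGC1A, the coactivator PGC-1 alpha, moved in opposite directions: it fell in PA-1 from 9.63, 8.16 and 9.17 CPM to 5.70, 6.83 and 6.29 CPM (log2 fold change -0.52 ± 0.13, edgeR adjusted p = 0.0324) and rose in SK-OV3 from 2.46, 1.96 and 1.97 CPM to 3.96, 5.19 and 5.62 CPM (log2 fold change 1.22 ± 0.24, edgeR adjusted p = 0.00436). Neither pair of groups overlapped, and the interaction was 1.73 ± 0.26 (edgeR adjusted p = 0.000495). The fall in PA-1 was lost under 7 of 14 alternatives, while the rise in SK-OV3 and the interaction held under all 14 and all 20 alternatives. Of the 16 regulators tested, POLRMT, the mitochondrial RNA polymerase, rose in PA-1 (0.33 ± 0.059, edgeR adjusted p = 0.00373) and ESRRA, which encodes ERR alpha, rose in SK-OV3 (0.30 ± 0.086, edgeR adjusted p = 0.0330). In all, 2 regulators were called in each line (12.5%, where 7.13% of all genes were called in PA-1 and 20.4% in SK-OV3). The call of POLRMT was lost under 1 and that of ESRRA under 6 of 14 alternatives. NRF1, GABPA, YY1 and TFAM did not pass the test in either line (named as the factors of the motifs and of mitochondrial DNA). NRF1 was higher in PA-1 without overlap of replicates (log2 fold change 0.25 ± 0.088, edgeR adjusted p = 0.0983). TFAM was lower without overlap in both lines (-0.09 in PA-1 and -0.11 in SK-OV3, edgeR adjusted p = 0.382 and 0.212). The replicates of NRF1 in SK-OV3 and of GABPA in both lines overlapped.

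Of the 9 hypoxia-linked genes tested that act on respiration, 5 rose in PA-1 (55.6%, where 4.65% of all genes rose) and 5 in SK-OV3 (55.6%, where 10.8% of all genes rose). They were LONP1, PDK1, MXI1, BNIP3 and BNIP3L in each line, and 0 of the 9 fell by edgeR. In PA-1 1 was lower at an unadjusted p under 0.05 and by DESeq2, and in SK-OV3 0 were by either. The lines have separate controls. The list was chosen with earlier results of these data known, so its share beside that of all genes is a description only. The call of BNIP3L in PA-1 was lost under 8 of 14 alternatives, and the other 9 held under all. BNIP3, which acts in the removal of mitochondria, rose from 318 ± 5.36 to 475 ± 27.0 CPM in PA-1 (log2 fold change 0.58 ± 0.056, edgeR adjusted p = 1.17e-05) and from 89.9 ± 2.94 to 170 ± 4.81 CPM in SK-OV3 (0.93 ± 0.054, edgeR adjusted p = 7.02e-07). PDK1, the kinase that restrains entry of pyruvate into the cycle, rose from 85.5 ± 2.51 to 119 ± 2.36 CPM and from 29.6 ± 3.37 to 40.2 ± 1.67 CPM. LONP1, the matrix protease, rose from 173 ± 11.7 to 227 ± 12.7 CPM and from 178 ± 10.7 to 242 ± 12.4 CPM. COX4I2, the hypoxia-linked form of its subunit, was not tested in either line, and NDUFA4L2, a low-level partner of NDUFA4, did not pass the test (log2 fold changes 0.40 and 1.77, edgeR adjusted p = 0.659 and 0.115).

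Over all genes tested, 2.48% fell and 4.65% rose in PA-1, and 9.56% fell and 10.8% rose in SK-OV3. Of the 44 assembly factors, 1 fell in PA-1 (2.27%), NDUFAF2 (-0.30 ± 0.072, edgeR adjusted p = 0.0244). At an unadjusted p under 0.05, 14 were lower there and 1 higher, and DESeq2 called 3 lower. Replicates did not overlap for 13 lower (29.5%, beside 13.3% of all genes) and 1 higher (2.27%, beside 14.1%). In SK-OV3 3 of the 44 fell (6.82%), NDUFAF1, BCS1L and COX11, by 0.22 to 0.35 on the log2 scale. There 1 rose (TTC19, 0.24 ± 0.062, edgeR adjusted p = 0.0184). At an unadjusted p under 0.05, 6 were lower in SK-OV3 and 2 higher. Of 14 alternatives, 6 lost the call of NDUFAF2, 6 that of NDUFAF1, 7 each those of BCS1L and COX11 and 4 that of TTC19. The medians of the list were -0.07 and 0.0034. Of the 13 tricarboxylic acid cycle enzymes, 2 fell in SK-OV3: CS, citrate synthase (159.5 ± 4.41 to 135 ± 5.52 CPM, log2 fold change -0.23 ± 0.051, edgeR adjusted p = 0.00883), and FH, fumarase (log2 fold change -0.21 ± 0.060, edgeR adjusted p = 0.0280), with the calls lost under 2 and 6 of 14 alternatives. In PA-1 0 of the 13 were called by edgeR, with 3 higher and 2 lower at an unadjusted p under 0.05 and 1 each way by DESeq2. Of 13 genes of coenzyme Q synthesis, ADCK3 fell and COQ10B rose in SK-OV3 (calls lost under 4 and 3 of 14 alternatives) and 0 were called in PA-1 (3 lower at an unadjusted p under 0.05, 0 by DESeq2). The subunits and electron carriers without such symbols, among them CYC1, CYCS and NDUFAB1, (a list that also holds UQCRHL) had 0 of 11 called in PA-1 (5 lower at an unadjusted p under 0.05, 2 by DESeq2) and 0 of 10 in SK-OV3 (1 each way at an unadjusted p under 0.05, 0 by DESeq2). Proteasome subunits in SK-OV3 had a median of -0.15 with 14 of 37 lower, mitochondrial ribosomal proteins one of -0.08 with 6 of 77 lower, and cytosolic ribosomal proteins one of -0.04 with 2 of 79 lower.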

How the data were processed

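Total RNA of PA-1 and SK-OV3 cells, 3 replicates in each of 4 groups, was sequenced by the authors. The extraction protocol names oligo-dT beads and the design text names depletion of ribosomal RNA. The deposited values are expected counts per gene symbol, and the submitters' processing notes name RSEM 1.2.15, Bowtie2 2.1.0 and hg38, with the annotation not given in the sources used here. Expected counts were rounded and tested with edgeR 4.0.16 in R 4.3.3 (TMM, filterByExpr, quasi-likelihood F test, Benjamini-Hochberg adjustment over all genes tested) within each line, and over all 12 libraries for the interaction and the line difference under DMSO. Standard errors are the log2 fold change over the square root of F. Scripts were tested on simulated data. Positions and GC content came from GENCODE by symbol (23900 symbols matched, 26 as current and 731 as older symbols, 1818 unmatched), and promoters from RefSeq (GRCh38.p14).

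Named were up to 4 genes per direction and line with the largest called change, up to 6 interactions by smallest p, up to 4 per direction between lines, the SDH and subunit c genes, the isoform pairs, the genes next to the limit of 1 CPM and up to 3 per direction and line from the other lists. The genes and lists were chosen with earlier results of these data known. Alternatives were DESeq2 1.42.0, other scalings, no filter, a replicate block, removal of GC and length trends (loess span 0.5) and leaving out each library. Same-numbered replicates did not deviate together. Library totals of 34544505 to 51840233 counts set the counting error. The values of 1 gene among those called are not reported here, and it stays in the counts and medians.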

Additional observations from a re-analysis of the deposited data

Results flagged for a closer look

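The response to BAY-850 differed between the lines, by the interaction term of edgeR's quasi-likelihood fit over all 12 libraries, for 2 genes of the respiratory chain and 10 genes of the lists around it. Of all 16830 genes tested, 14.5% were called, beside 2.47% of the 81 respiratory chain genes. The lists had 2 of 44 assembly factors (4.55%), 1 of 16 regulators (6.25%) and 2 of 13 tricarboxylic acid cycle enzymes (15.4%). They also had 2 of 13 coenzyme Q genes (15.4%) and 3 of 9 hypoxia-linked genes (33.3%). Values are the log2 response in SK-OV3 minus that in PA-1. NDUFS4 had 0.54 (adjusted p = 0.00968) and ATP5B -0.36 (adjusted p = 0.00374). Among the regulators, PPARGC1A had 1.73 (adjusted p = 0.000495). Of the tricarboxylic acid cycle enzymes, CS had -0.43 (adjusted p = 0.00756, lost under 1 of 20 alternatives) and OGDH -0.28 (adjusted p = 0.0356, lost under 15 of 20). Of the coenzyme Q genes, ADCK3 had -0.47 (adjusted p = 0.00617) and COQ10B 0.47 (adjusted p = 0.00313). Of the assembly factors, COX20 had -0.66 (adjusted p = 0.0192, lost under 6 of 20 alternatives) and TTC19 0.29 (adjusted p = 0.0486, lost under 12 of 20). Neither line's own response passed the test for COX20 or OGDH. Of the hypoxia-linked genes, which rose in both lines, MXI1 had -0.38 (adjusted p = 0.00428, lost under 1 of 20), BNIP3 0.34 (adjusted p = 0.00477) and BNIP3L 0.38 (adjusted p = 0.00238).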

How the results depend on the processing

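The counts of respiratory chain genes called depended on single libraries and settings, while NDUFS4 in PA-1, ATP5B and ATP5F1 in SK-OV3 and the interactions of NDUFS4 and ATP5B were called under every alternative run. In PA-1, 5 genes were called lower, 10 without a filter on low counts, 9 by DESeq2, 2 with the GC trend removed and between 1 and 10 with 1 library left out, where between 0 and 1 were called higher. In SK-OV3, 7 were called lower, 12 with the length trend removed and between 3 and 11 with 1 library left out. There 1 was called higher without a filter and between 0 and 1 with 1 library left out. The interaction had 2 calls, 5 by DESeq2 and between 2 and 5 with 1 library left out, the 5 without SK-OV3 BAY-850 replicate 1. The median in SK-OV3, -0.08 with all libraries, ranged from -0.1298 to 0.015 with 1 library left out, and was above 0 without SK-OV3 DMSO replicate 1 alone. The cause was not tested. With the replicate number as a block, 7 genes were lower in PA-1, 6 in SK-OV3 and 2 had an interaction, and same-numbered libraries did not deviate together.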
